A study of Sus scrofa with 30 samples.

Results

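Of the 13103 genes counted in 30 single pig embryos, 122 had a trough on Day 10. Members were chosen by their day means of CPM (a gene's read count scaled to the embryo's library size): the means of Days 8 and 12 were both at least 2 CPM and within 3-fold of each other, and the Day 10 mean was at most 50% of both. The rule keeps at most 300 genes, those with the highest Day 8 mean, and all 122 were kept. Because these genes were selected on the means of all 3 days, their fall to Day 10 and their rise to Day 12 are given here as a description. Calls of members on these day contrasts are part of that description. Results are read only from tests on what the rule did not use.

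The embryos were flushed from gilts (young sows) slaughtered on Day 8, 10 or 12 after insemination, 4 gilts a day, and 5 female and 5 male embryos a day were sequenced as stranded mRNA libraries. No treatment differed between the groups: all gilts had been cycle synchronized with Altrenogest, PMSG and human chorionic gonadotropin and inseminated with sperm of a single boar. Each library was 1 complete embryo, with embryonic disc and trophectoderm, so a lower level can be less RNA per cell or fewer cells of a type, and these cannot be told apart. Each gilt gave embryos of 1 day and the gilt of an embryo is not given in the labels, so day and gilt cannot be told apart, and p-values measure the spread between embryos, of which some are littermates, since 10 embryos a day came from 4 gilts. Counts per embryo ran from 6068212 in d12_f_245 to 34002508 in d12_m_286, and 3 counts were worth at most 0.494 CPM.

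Between these days the pig blastocyst leaves its zona, grows from a sphere to an ovoid and tubular form and then elongates into a filament. The outer trophectoderm makes up most of the conceptus, the hypoblast lines it as extraembryonic endoderm, and the epiblast of the embryonic disc gives rise to the embryo and to the first mesoderm. Elongation runs together with remodeling of actin and of cell junctions, with estrogen and prostaglandin synthesis, and with uptake of iron, amino acids and nucleosides from the uterine fluid.

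In the fit across all genes (edgeR quasi-likelihood test, false discovery rate under 0.001 and log2 fold change beyond 1), 82 members were lower on Day 10 than on Day 8, against 4.2% of all genes. There were 93 members higher on Day 12 than on Day 10, against 14.9% of all genes, and 65 were called on both sides, against 0.786% of all genes. The rule used these contrasts, so nothing is read from these counts. In 34 members all 10 Day 10 embryos lay below all 20 embryos of the other days, as in 1.38% of all genes, and this too follows in part from the choice. By column totals the median gene moved by -0.13 from Day 8 to Day 10 and by 0.22 from Day 10 to Day 12 on the log2 scale, while with TMM factors it moved by 0.03 and 0.04. The folds of CPM below contain this shift of -0.16 and 0.18, and the log2 fold changes of the fit do not. With TMM factors 80 of the 122 genes still met the rule and no other gene did.

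**Figure D1:**
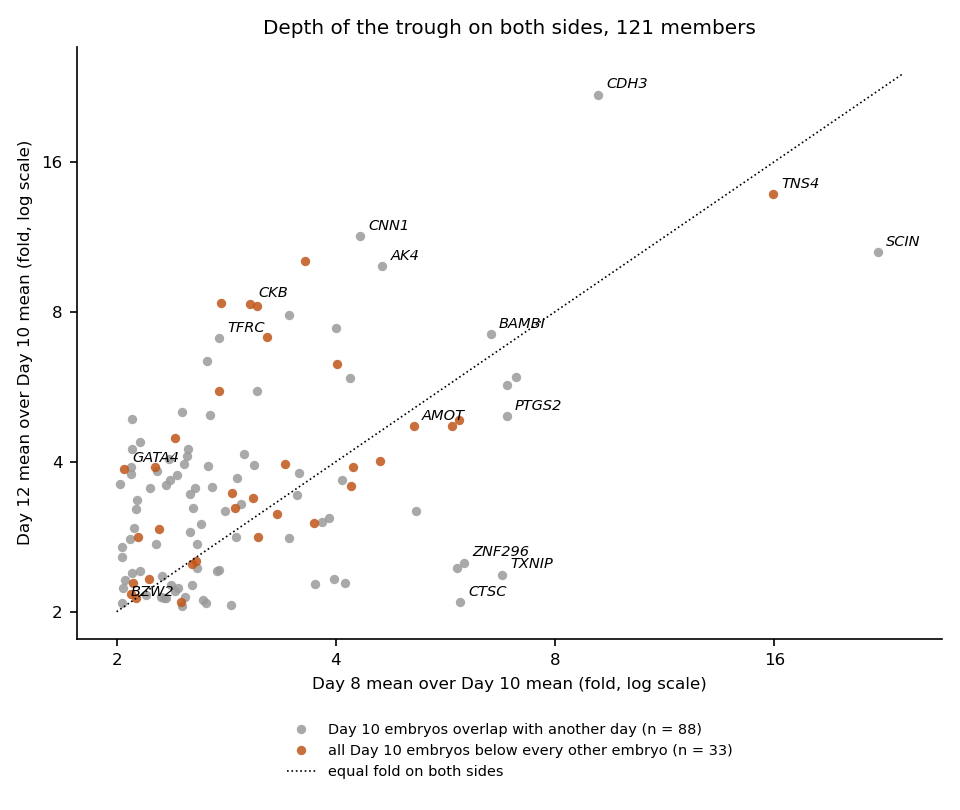
Day 8 mean over Day 10 mean (horizontal, log scale) against Day 12 mean over Day 10 mean (vertical, log scale) for all members but 1, from CPM. Orange points are the 33 of them whose Day 10 embryos all lay below every other embryo, and the dotted line marks equal folds; SCIN and TNS4 lie farthest to the right and most members lie between 2-fold and 8-fold on both axes.

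The median member was 2.67-fold lower on Day 10 than on Day 8 and 3.41-fold lower on Day 10 than on Day 12. The Day 10 mean was at most 1/3 of both other days in 36 members, at most 1/5 in 7 and at most 1/10 in 3. Day 12 means were above Day 8 means in 75 members and below them in 47, with a median Day 12 to Day 8 ratio of 1.12 and a range from 0.351 to 2.999.

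TNS4, a tensin that links integrins to the cytoskeleton at focal adhesions, was 15.9-fold lower on Day 10 than on Day 8 and 13.8-fold higher on Day 12 than on Day 10. Without d08_m_136 the first fold would be 9.82. Its levels ran between 1.37 and 32.7 CPM in Day 8 embryos (median 4.93), between 0.0449 and 1.14 in Day 10 embryos (median 0.362) and between 1.8 and 10.4 in Day 12 embryos (median 7.45). The Day 10 embryos did not overlap with the others, but the highest Day 10 embryo and the lowest Day 8 embryo were close. SCIN, which severs actin filaments, was also at most 1/10 of both days (named after its values were seen). SCIN ran between 2.01 and 9.14 CPM in Day 8 embryos (median 5.46), between 0 and 0.862 in Day 10 embryos (median 0.0903) and between 0.437 and 6.83 in Day 12 embryos (median 1.9), and its Day 10 and Day 12 embryos overlapped.

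CDH3 encodes the adhesion molecule P-cadherin and also stood apart in depth (named after its values were seen), at between 1.64 and 37.5 CPM in Day 8 embryos (median 3.81), between 0.385 and 1.3 in Day 10 embryos (median 0.806) and between 0.659 and 74.7 in Day 12 embryos (median 8.75). Embryo d08_m_136 held the highest Day 8 level of TNS4 (32.7 CPM) and of CDH3 (37.5 CPM). The next highest Day 8 embryos had 8.26 and 7.35 CPM. Without d08_m_136 CDH3 would be 4.98-fold in place of 9.15-fold lower on Day 10 than on Day 8, and without d12_m_276 (74.7 CPM) 13.9-fold in place of 21.8-fold higher on Day 12 than on Day 10. Both genes share a high level in d08_m_136, and the other 9 Day 8 embryos lay closer together.

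Among the 10 members with the highest Day 8 CPM, PTGS2 came first, the inducible cyclooxygenase that starts prostaglandin synthesis. PTGS2 ran between 658 and 1111 CPM in Day 8 embryos (median 822), between 19.1 and 192 in Day 10 embryos (median 145) and between 159 and 3041 in Day 12 embryos (median 314). Every Day 10 embryo was below every Day 8 embryo, whereas the highest Day 10 and lowest Day 12 embryos overlapped (192 and 159 CPM). d12_m_307 alone reached 3041 CPM and the next Day 12 embryo 553 CPM, and without d12_m_307 the rise from Day 10 would be 2.75-fold in place of 4.94-fold.

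CKB, the brain type creatine kinase that buffers ATP, averaged 532 ± 117, 175 ± 43.8 and 1450.2 ± 414 CPM on Days 8, 10 and 12 (mean ± SD, n = 10 embryos here and below). It fell 3.05-fold and then rose past its Day 8 level, and all its Day 10 embryos lay below the others. SRM, the enzyme that makes spermidine from putrescine, averaged 347 ± 70, 60 ± 22.6 and 283 ± 128 CPM on Days 8, 10 and 12. Spermidine synthase was thus 5.78-fold lower on Day 10 than on Day 8 and 4.72-fold higher on Day 12 than on Day 10, with no overlap. RRBP1, which binds ribosomes to the endoplasmic reticulum, averaged 500.4 ± 59.7, 159.9 ± 42.7 and 452.5 ± 97.5 CPM on Days 8, 10 and 12, also without overlap.

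AMOT on the X chromosome encodes angiomotin, a junction protein that holds YAP in the cytoplasm and takes part in setting trophectoderm apart from inner cells. AMOT ran between 222 and 409.9 CPM in Day 8 embryos (median 321.1), between 33.6 and 93.7 in Day 10 embryos (median 63.3) and between 169.6 and 385 in Day 12 embryos (median 295). Its Day 10 embryos lay below all others, by 5.12-fold against Day 8 and 4.72-fold against Day 12 in the means. HSPG2, the basement membrane proteoglycan perlecan, averaged 304 ± 49.9, 104.5 ± 27.4 and 338 ± 132 CPM on Days 8, 10 and 12, and its Day 10 embryos lay below all others.

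PAQR8, a membrane progestin receptor, averaged 301 ± 48.9, 107 ± 30.8 and 341 ± 128 CPM on Days 8, 10 and 12. Its highest Day 10 embryo (167 CPM) exceeded its lowest Day 12 embryo (151 CPM). LITAF, a protein of late endosomes, fell 2.77-fold and rose 5.56-fold, to a Day 12 mean that was 2.01 times that of Day 8. BZW2 and the nuclear phosphoprotein gene ANP32A were flat at the flanks, with Day 12 to Day 8 ratios of 1.02 and 1, and fell 2.04-fold and 2.13-fold. Neither met the rule with TMM factors.

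**Figure D2:**
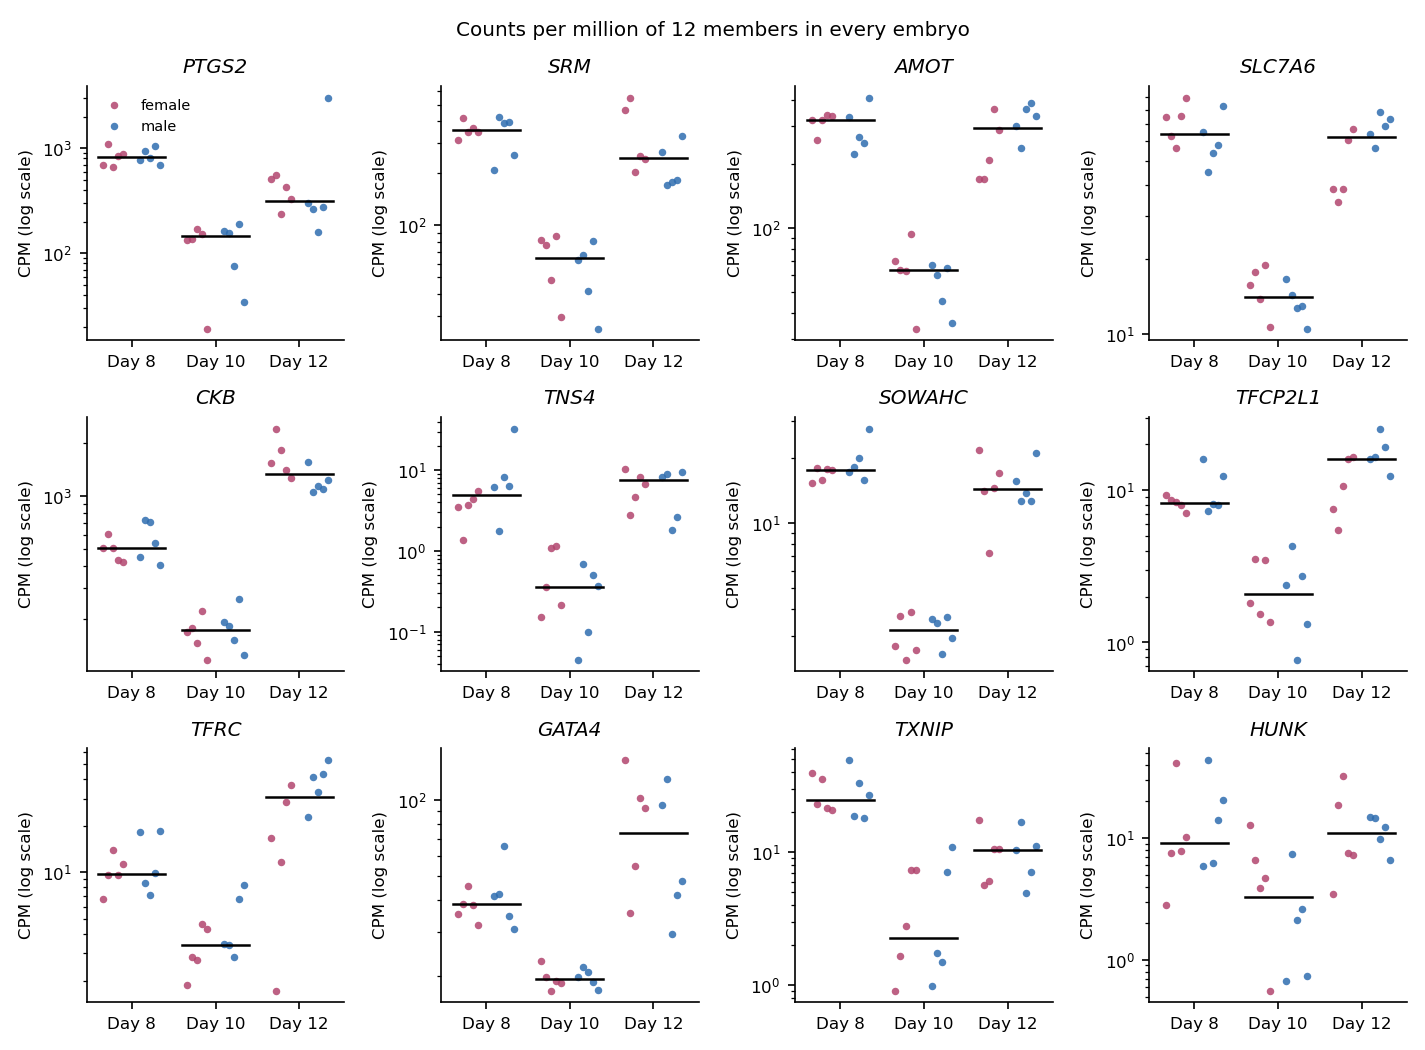
CPM (log scale) of 12 members in each of the 30 embryos by day, with female embryos in red, male embryos in blue and the median of the 10 embryos of a day as a black bar. In the panels of SRM, AMOT, SLC7A6, CKB, TNS4, SOWAHC, TFCP2L1 and GATA4 no Day 10 embryo reaches an embryo of another day, while TXNIP, HUNK, TFRC and PTGS2 overlap.

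By function (groups made after the members were known), the members fell into 11 groups and 19 were left ungrouped, 8 of them with a locus name only. The largest group held 18 genes of the cytoskeleton and of small GTPase signaling, with a median fall of 2.90-fold and a median rise of 3.48-fold. Besides TNS4, SCIN and AMOT it comprised CNN1, KANK2, NAV2, DLC1, TACC1, FMN1, FRMD4A, PREX1, NCKAP5L, TBC1D8B, UACA, PLEKHG1, ARHGAP26, ADAP2 and SIPA1. CNN1, the calponin of contractile cells, averaged 2.65 ± 1.28, 0.612 ± 0.399 and 6.95 ± 4.86 CPM on Days 8, 10 and 12 and rose 11.4-fold, but d12_m_276 had only 0.153 CPM, below every Day 10 embryo.

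The 8 genes of the secretory pathway and glycosylation had a median Day 12 to Day 8 ratio of 0.938, and only 2 of them were higher on Day 12 than on Day 8. They comprised RRBP1, the N-glycan enzyme MGAT2, the chaperone FKBP9, FUT4, FUT2A, ST6GALNAC3, EXTL2 and the sorting receptor SORL1. FUT4, a fucosyltransferase that makes Lewis type structures, ran between 5.64 and 33.1 CPM in Day 8 embryos (median 10.9), between 2.48 and 4.43 in Day 10 embryos (median 3.36) and between 5.68 and 24.2 in Day 12 embryos (median 11.3), without overlap. FUT2A, of the family that adds terminal fucose to H antigens, averaged 13.7 ± 2.08, 4.99 ± 1.02 and 12.1 ± 5.23 CPM on Days 8, 10 and 12, and its lowest Day 12 embryo fell within the Day 10 range.

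Among 10 genes of matrix, junctions and keratin, 9 were higher on Day 12 than on Day 8, with a median ratio of 1.495. PLOD1, which hydroxylates lysines of collagen, averaged 59.5 ± 9.31, 17.9 ± 4.26 and 56.4 ± 17.2 CPM on Days 8, 10 and 12, without overlap. TNXB, the matrix glycoprotein tenascin X, averaged 13.9 ± 3.09, 5.17 ± 2.11 and 25.6 ± 15.1 CPM on Days 8, 10 and 12. For TNXB d10_f_454 (9.80 CPM) exceeded d08_f_105 (9.35 CPM), and d12_m_276 (4.82 CPM) lay within the Day 10 range. SDC3, a heparan sulfate proteoglycan of the cell surface, was even on Day 10 at 4.65 to 6.93 CPM. On Day 12 it ran from 3.98 to 101 CPM, the upper value from d12_m_249 alone, with the next embryo at 26.4 CPM, and without it the rise from Day 10 would be 2.40-fold in place of 3.96-fold. CDH3, DSC3, KRT10, RELN, NINJ1 and VSIG1 completed the group.

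Carriers and channels numbered 8, with a median fall of 2.88-fold and a median rise of 4.06-fold, and 6 were higher on Day 12 than on Day 8. SLC7A6, which exchanges cationic for neutral amino acids, ran between 44.9 and 89.7 CPM in Day 8 embryos (median 63.9), between 10.5 and 18.9 in Day 10 embryos (median 14.1) and between 34 and 78.6 in Day 12 embryos (median 62.3). Its Day 10 embryos lay well below both other days. SLC26A4, the anion exchanger pendrin, fell 3.11-fold and rose 8.21-fold, again without overlap. SLC29A1, the equilibrative nucleoside transporter, averaged 176 ± 43.1, 79 ± 9.06 and 279.6 ± 128.95 CPM on Days 8, 10 and 12, and its Day 10 values stayed within 64.8 to 93.5 CPM. Embryo d12_f_271, at 73.4 CPM of SLC29A1, lay within that Day 10 range. SLC7A9, the light chain of the cystine and dibasic amino acid transporter, averaged 23.3 ± 8.55, 9.14 ± 1.46 and 29.6 ± 14 CPM on Days 8, 10 and 12, and SLC4A7, a sodium bicarbonate cotransporter, averaged 7.09 ± 4.41, 2.37 ± 0.816 and 9.83 ± 6.5 CPM on Days 8, 10 and 12, and both overlapped with other days.

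Members in the list of iron genes were TFRC, CYBRD1 and STEAP3. TFRC, the transferrin receptor, averaged 11.3 ± 4.24, 4.1 ± 1.99 and 29 ± 15.9 CPM on Days 8, 10 and 12 and rose 7.07-fold. CYBRD1, a ferric reductase of the plasma membrane, ran between 26.4 and 54.2 CPM in Day 8 embryos (median 32.7), between 11.13 and 18.1 in Day 10 embryos (median 15.5) and between 24 and 123.7 in Day 12 embryos (median 71.9), with no overlap. STEAP3, the reductase that acts on iron in endosomes, averaged 6.04 ± 1.16, 2.41 ± 0.834 and 10.2 ± 5.58 CPM on Days 8, 10 and 12, and its lowest Day 12 embryo lay within the Day 10 range. MELTF, melanotransferrin, is an iron binding membrane protein outside the iron list and was 3.98-fold lower on Day 10 than on Day 8.

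Of 29 measured entries of the iron list (28 symbols, since TF is counted under 2 identifiers), 7 were called lower and 4 higher on Day 10 than on Day 8, against 4.2% and 9.88% of all genes. From Day 10 to Day 12, 9 were called higher and 5 lower, against 14.9% and 8.39% of all genes. The list median was -0.12 and -0.06 on the log2 scale, beside 0.03 and 0.04 over all genes. Called on both sides of the trough were STEAP1, STEAP2, STEAP3 and CYBRD1. STEAP1 and STEAP2, of the same reductase family, were below the level floor of the rule, with STEAP2 at 1.33 ± 0.48, 0.449 ± 0.273 and 2.44 ± 1.54 CPM on Days 8, 10 and 12. The ferritin genes FTH1 and FTL moved otherwise, with FTH1 at 1669.6 ± 169, 1883 ± 194 and 3319 ± 678 CPM on Days 8, 10 and 12.

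The remaining lists were also read as counts. The calls in these lists and in the iron list are on the day contrasts that the rule used, and each list holds members. The lists were chosen with earlier results of these data known, so their counts are a description. Beside each stand the shares over all genes: from Day 8 to Day 10, 4.2% were called lower and 9.88% higher, and from Day 10 to Day 12, 14.9% higher and 8.39% lower. Among 47 hypoxia and HIF target genes, 6 (12.8%) were called lower and 6 (12.8%) higher on Day 10 than on Day 8, while 15 (31.9%) rose and 4 (8.51%) fell from Day 10 to Day 12. Members among them included AK4, PLOD1 and TFRC. AK4, a mitochondrial adenylate kinase, averaged 21.9 ± 6.37, 4.74 ± 1.11 and 46.8 ± 29.1 CPM on Days 8, 10 and 12, a rise of 9.87-fold, although d12_f_271 had 2.9 CPM, below every Day 10 embryo.

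In the list of 40 measured matrix genes 29 (72.5%, against 14.9% of all genes) were called higher and 2 (5.0%, against 8.39%) lower on Day 12 than on Day 10, while from Day 8 to Day 10, 4 (10.0%, against 4.2%) were lower and 5 (12.5%, against 9.88%) higher. The median matrix gene rose by 1.47 on the log2 scale from Day 10 to Day 12 and by 0.05 from Day 8 to Day 10. Members of the list were HSPG2, TNXB, SDC3 and PLOD1. Of 38 actin and contractile genes, 2 (5.26%) were lower and 5 (13.2%) higher on Day 10 than on Day 8, against 4.2% and 9.88% of all genes, and the only 2 called on both sides were the members CNN1 and TNS4. Of 30 glycan transferases, 7 (23.3%) were lower and 1 (3.33%) higher on Day 10 than on Day 8, while 7 (23.3%) rose and 3 (10.0%) fell from Day 10 to Day 12. FUT2A, FUT4, GALNT12 and GCNT3 were called on both sides.

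Of 44 WNT genes 2 (4.55%, against 4.2% of all genes) were lower and 7 (15.9%, against 9.88%) higher on Day 10 than on Day 8, while 15 (34.1%, against 14.9%) rose and 3 (6.82%, against 8.39%) fell from Day 10 to Day 12. The single member was RNF43, a ubiquitin ligase that removes frizzled receptors from the membrane, and no other gene of the list was called on both sides. RNF43 ran between 7.86 and 13 CPM in Day 8 embryos (median 11.6), between 0.642 and 6.23 in Day 10 embryos (median 2.67) and between 7.61 and 13.9 in Day 12 embryos (median 10.5), without overlap. Of the solute carriers 19 (7.76%) were called lower and 42 (17.1%) higher on Day 10 than on Day 8, whereas 63 (25.7%) rose and 35 (14.3%) fell from Day 10 to Day 12. In the 221 zinc finger genes these counts were 10 (4.52%) and 5 (2.26%), and 28 (12.7%) and 3 (1.36%).

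The zinc finger members were ZNF296, ZNF462, ZNF662 and ZNF792. ZNF296 had the lowest return of these, from 6.01 CPM on Day 8 through 1 to 2.52 on Day 12, a Day 12 to Day 8 ratio of 0.419. ZNF462 went the other way, with a ratio of 2.03, and fell only 2.15-fold. ZNF662 and ZNF792 fell 2.57-fold and 2.12-fold. In the fits with TMM factors the log2 fold change from Day 8 to Day 10 was -0.96 in males and -0.90 in females for ZNF462. For ZNF792 it was -0.92 in males and -0.89 in females, so neither gene fell beyond a log2 fold change of 1 there.

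Other transcription factors brought this group to 12 genes, 9 of them higher on Day 12 than on Day 8. TFCP2L1, part of the naive pluripotency network in mouse embryonic stem cells, ran between 7.08 and 16 CPM in Day 8 embryos (median 8.23), between 0.769 and 4.31 in Day 10 embryos (median 2.1) and between 5.5 and 25.4 in Day 12 embryos (median 16.1). Its Day 10 embryos did not overlap with the others. GATA4, a zinc finger factor of the hypoblast and later endoderm and heart, was the only member in a cell type marker list, and ran between 30.8 and 65.5 CPM in Day 8 embryos (median 38.5), between 17.5 and 22.9 in Day 10 embryos (median 19.5) and between 29.4 and 144 in Day 12 embryos (median 73.7). All Day 10 embryos of GATA4 lay below the others, but its fall of 2.05-fold did not meet the rule with TMM factors. DLX5, DLX6, ELF4, TFAP4, EGR1 and ZFHX2 were the rest of the group.

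DLX5 and DLX6 are homeobox genes of 1 pair, at chr9:76639915-76643689 and chr9:76623489-76630296 in Sscrofa11.1, with 9619 bp and no other annotated gene between them (described after their values were seen). DLX5 ran between 12.3 and 19.9 CPM in Day 8 embryos (median 15), between 2.06 and 7.36 in Day 10 embryos (median 4.08) and between 11.6 and 23.4 in Day 12 embryos (median 17.5). DLX6 ran between 2.73 and 5.86 CPM in Day 8 embryos (median 4.38), between 0.642 and 3.04 in Day 10 embryos (median 0.995) and between 6.8 and 14.1 in Day 12 embryos (median 10). Embryo d10_f_433 was the highest of the 10 on Day 10 for both genes, with 7.36 CPM of DLX5 and 3.04 CPM of DLX6. A second close pair was TFRC at chr13:133976765-133997554 and LOC100512560 at chr13:133969419-133970560, 6205 bp apart, where reads running past a gene's end cannot be separated from reads of its neighbor.

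By chromosome, 17 members lay on chromosome 9, which holds 635 measured genes, and 17 on chromosome 6, which holds 1437. That is 2.68% and 1.18% of the measured genes there, beside 122 members among all 13103 genes. The share on the other chromosomes with members ran from 0.306% on chromosome 5 to 1.37% on chromosome 10. Chromosomes without members are not in this range, and no difference between chromosomes was tested. The 17 genes of chromosome 9 include PTGS2, BZW2, CTSC, GDPD5, CDK6, SLC26A4, CDK18, DLX5, DLX6, FUT4, RELN, USP2 and SCIN. X-linked members were AMOT, ELF4, TBC1D8B, VSIG1 and LOC100154946, 4.10% of members against 3.35% of all genes. The median member spans 41338.5 bp of the genome and the median gene 25605 bp. CDK6 and LOC100512560 are annotated as long noncoding RNAs and MIR6782 as a microRNA, and in an mRNA library reads of CDK6 and MIR6782 may belong to other transcripts of these loci.

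The 16 signaling genes had a median fall of 2.59-fold and a median rise of 3.50-fold. They comprised the BMP and activin pseudoreceptor BAMBI, the growth factor FGF2, the phosphatase DUSP4, the semaphorins SEMA4D and SEMA7A, TNFRSF12A, TRIB1, GRK3, RNF43, HOMER1, PDE8A and the kinase genes HUNK, CDK18, WNK4 and ALPK3, and also CDK6, whose entry is a noncoding one. The 8 genes of stress, p53 and arrestin domain proteins included MDM2, PARP1, NOCT, TXNIP and its relative ARRDC4, and 5 of the 8 had no overlap, beside 34 of all 122 members and 1.38% of all genes. Proteases, inhibitors and coagulation genes numbered 7, among them PRSS8, CTSC, F3, LXN, USP2 and BACE1, and only 3 were higher on Day 12 than on Day 8. Lipid, prostaglandin and steroid genes numbered 6 (PTGS2, PAQR8, GDPD5, SCD5, RDH10 and GRAMD1B), and all 6 overlapped with another day. The 6 genes of amine, nucleotide and energy metabolism were CKB, SRM, OAT, AK4, CDA and ALPL.

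Among the members with the largest fitted fall without overlap were also SOWAHC and FAM89A, 2 genes without a well known role. SOWAHC ran between 15.4 and 27.6 CPM in Day 8 embryos (median 17.8), between 2.31 and 3.86 in Day 10 embryos (median 3.17) and between 7.26 and 21.9 in Day 12 embryos (median 14.4). FAM89A ran between 9.95 and 13.6 CPM in Day 8 embryos (median 11.07), between 2.06 and 5.16 in Day 10 embryos (median 2.86) and between 6.54 and 18.1 in Day 12 embryos (median 8.17). The fitted log2 fold change from Day 8 to Day 10 was -2.39 ± 0.14 (SE) for SOWAHC and -1.72 ± 0.16 for FAM89A.

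To measure the trough in embryos that had no part in the choice, the rule was applied to the 15 female embryos alone and the chosen genes were tested in the 15 male embryos, and the reverse. Both sexes came from the same gilts of a day, so these are separate embryos but not separate litters. An effect of day or gilt that both sexes share would carry over to the test. All genes, given beside the counts, include those outside the level conditions of the rule, so these shares are not matched to the chosen genes. In females the rule was met by 98 members and 26 other genes. In male embryos 119 of these genes were lower on Day 10 than on both other days in the fit and 5 were not, with a median log2 fold change of -1.30 from Day 8 to Day 10 and 1.41 from Day 10 to Day 12. Over all genes these medians were 0.02 and 0.03. On both sides 22 of the chosen genes (17.7%) passed the test in males, against 0.259% of all genes, which is 34 genes. The robust GLM called 50 of them and DESeq2 41.

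The reverse choice gave 149 genes, 100 of them members. In female embryos 141 of the 149 were lower on Day 10 than on both other days, with medians of -1.05 and 1.25, and 22 (14.8%) passed on both sides, against 0.214% of all genes, which is 28 genes. Here the robust GLM called 49 and DESeq2 35. Called whichever sex was used for the choice were 14 genes, among them AMOT, CDK18, DLX5, FAM222B, FAM89A, NOCT, PLOD1, RRBP1, SEMA4D, SLC7A6, SOWAHC, SRM and TFCP2L1. For these 14 every embryo took part in both choice and test, so the list is a description. In 78 members the rule was met in females and in males separately.

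**Figure D3:**
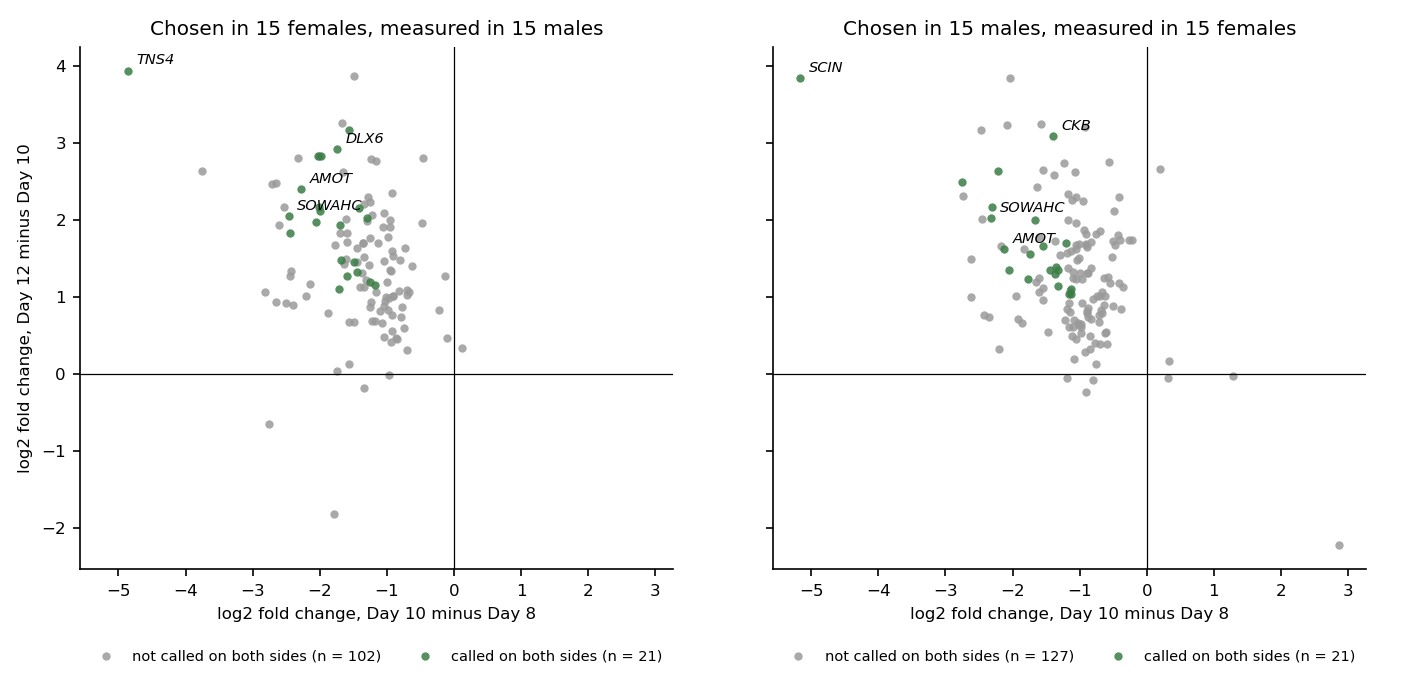
Log2 fold changes from Day 8 to Day 10 (horizontal) and from Day 10 to Day 12 (vertical) in the sex that was not used for the choice, for the genes chosen in females (left) and in males (right), 1 gene left out of each panel. Each point is a gene, and green points are the 21 genes in each panel that passed the test on both sides; 118 and 140 genes lie in the upper left field, lower on Day 10 than on both days.

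The log2 fold changes that follow are from the edgeR quasi-likelihood test. The genes given here were named from all embryos, by list, by rankings over both sexes or after their values were seen. Embryos of the tested sex thus helped to pick them, and their single p-values are given as a description. The test in the other sex is read from the counts over all chosen genes above. SLC7A6 in males changed by -2.01 ± 0.17 (adjusted p = 9.65e-07) from Day 8 to Day 10 and 2.17 ± 0.17 (adjusted p = 1.14e-07) from Day 10 to Day 12, and AMOT by -2.28 ± 0.21 (adjusted p = 1.67e-06) from Day 8 to Day 10 and 2.40 ± 0.21 (adjusted p = 2.69e-07) from Day 10 to Day 12. TFCP2L1 in females changed by -1.66 ± 0.31 (adjusted p = 6.98e-04) from Day 8 to Day 10 and 2.01 ± 0.31 (adjusted p = 6.08e-05) from Day 10 to Day 12. Chosen in females and tested in males, TNS4 passed with -4.86 ± 0.83 (adjusted p = 3.24e-04) from Day 8 to Day 10 and 3.94 ± 0.81 (adjusted p = 9.03e-04) from Day 10 to Day 12. Without d08_m_136 the first of these was -3.86 ± 0.67 (adjusted p = 5.98e-04). In the reverse test TNS4 was not called on both sides, with -2.47 ± 0.51 (adjusted p = 0.00155) from Day 8 to Day 10 and 3.17 ± 0.52 (adjusted p = 1.04e-04) from Day 10 to Day 12. CKB, chosen in males, changed in females by -1.40 ± 0.20 (adjusted p = 7.51e-05) from Day 8 to Day 10 and 3.09 ± 0.21 (adjusted p = 1.21e-08) from Day 10 to Day 12. DLX5 and DLX6 both passed in males, with DLX6 at -1.74 ± 0.28 (adjusted p = 1.82e-04) from Day 8 to Day 10 and 2.93 ± 0.29 (adjusted p = 8.71e-07) from Day 10 to Day 12. DLX5 also passed in females, but DLX6 was not called there on both sides, with -1.54 ± 0.34 (adjusted p = 0.00253) from Day 8 to Day 10 and 2.65 ± 0.35 (adjusted p = 1.28e-05) from Day 10 to Day 12. PTGS2 was not called on both sides in either direction.

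Female and male embryos were compared within each day, a difference that the rule did not use. On Day 8, 1 of 122 members was called at a false discovery rate under 0.05, against 0.658% of all genes, and 16 had an unadjusted p under 0.05 (13.1%), against 4.59% of all genes. Of these 16, 12 were lower in female embryos. The called gene was VSIG1 on the X chromosome, an immunoglobulin domain protein of epithelial junctions. In the 5 female embryos of Day 8 VSIG1 had 2.26, 3.33, 6.12, 6.67 and 9.88 CPM. The 5 male embryos had 1.39, 1.53, 0.269, 1.05 and 1.09 CPM, all below the lowest female. The difference was 2.33 ± 0.43 on the log2 scale (edgeR, adjusted p = 0.0281), and the call was lost when any 1 of 7 embryos was left out.

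On Day 10, 115 members were in the table of the day and none was called, against 0.223% of all genes. An unadjusted p under 0.05 was reached by 1 member, against 2.36% of all genes, and the robust GLM and DESeq2 also called none. VSIG1 differed by 1.09 ± 0.54 on Day 10 and 0.22 ± 0.34 on Day 12. On Day 12 none of 122 members was called by edgeR, against 0.123% of all genes, and 8 had an unadjusted p under 0.05, against 22.7% of all genes. That share over all genes was 4.59% on Day 8 and 2.36% on Day 10, and why it was larger on Day 12 was not tested. DESeq2 called 2 on Day 12, MDM2 (lower in females) and MIR6782 (higher in females), and the robust GLM none.

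Whether the trough differed between the sexes was tested as an interaction. From Day 8 to Day 10 none of the 122 members was called by edgeR (0.0% of all genes), and 1 had an unadjusted p under 0.05, against 0.763% of all genes. From Day 10 to Day 12 none was called (0.0% of all genes), the smallest adjusted p was 0.193, and 6 had an unadjusted p under 0.05, against 18.9% of all genes. DESeq2 and the robust GLM called none in either step. For VSIG1 the female minus male difference changed by -1.25 on the log2 scale from Day 8 to Day 10 (edgeR, adjusted p = 0.999997), so its sex difference was not shown to differ between these days.

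Each embryo was summarized by the median, over the 122 members, of its log2 level relative to the Day 8 mean. In Day 8 embryos this value lay between -0.22 and 0.13 (median -0.02), in Day 10 embryos between -1.66 and -1.10 (median -1.40) and in Day 12 embryos between -0.57 and 0.37 (median 0.11). Since all embryos entered the rule, the separation of the days is a description. The members took 0.576% to 0.686% of all counts in Day 8 embryos, 0.146% to 0.269% in Day 10 embryos and 0.651% to 0.948% in Day 12 embryos. Between 80 and 115 of the 122 members were below 50% of their Day 8 mean in a Day 10 embryo, between 1 and 8 in a Day 8 embryo and between 8 and 41 in a Day 12 embryo. d12_f_271 was the Day 12 embryo with 41 such members, and the next was d12_m_276 with 29.

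**Figure D4:**
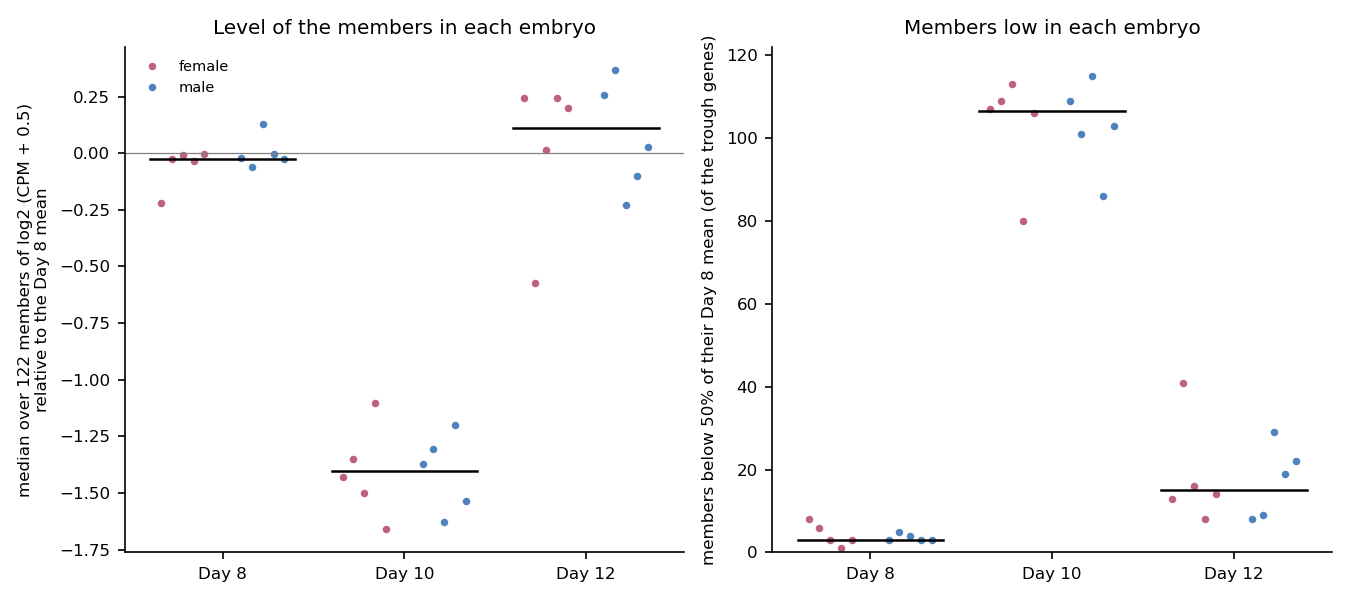
Left, the median over the 122 members of the log2 level (CPM + 0.5) relative to the Day 8 mean in each embryo; right, how many of the 122 members were below 50% of their Day 8 mean. Points are embryos (female red, male blue) and bars are medians of the 10 embryos of a day; the 10 Day 10 embryos hold 80 to 115 low members and the Day 12 embryos 8 to 41.

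Among the Day 10 embryos, d10_f_433 and d10_m_435 were the highest (-1.10 and -1.20, with 80 and 86 members below 50%). The lowest were d10_f_454 (-1.66) and d10_m_333 (-1.63). Without d10_f_433 the rule would have found 152 genes, and without d10_m_435 142, and in each case all members but 1 were among them. The summed CPM of the 18 measured trophectoderm markers was also lowest in these embryos, at 46677 in d10_f_433 and 48231 in d10_m_435, with 59342 to 67908 in the other 8, and its part in the levels was not tested. The epiblast marker sum was 527 and 599.9 CPM in the same pair and 755 to 1690 in the others.

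The spread between embryos differed widely among members. On Day 10 the SD of log2 CPM ran from 0.12 to 1.27 with a median of 0.41, against 0.33 on Day 8 and 0.65 on Day 12. In the 9934 genes with Day 8 and Day 12 means of at least 2 CPM the medians were 0.18, 0.25 and 0.38 on Days 8, 10 and 12. These genes were not matched to the members by level. The median member had a day mean of 10.3, 3.19 and 12.5 CPM, and the rule set its Day 10 level low. The larger medians of the members are therefore not read as a trait of theirs. Day 12 was the day of widest spread for 88 members (72.1%) and for 70.8% of those genes. The smallest spread on Day 10 belonged to GATA4, SDC3 and SLC29A1. All 10 Day 10 embryos of GATA4 lay at 17.5 to 22.9 CPM, while its Day 12 embryos spread over 29.4 to 144 CPM.

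HUNK, a kinase related to AMPK, had the widest spread on Day 10. Its Day 10 levels were 12.7, 6.57, 3.92, 4.68 and 0.556 CPM in d10_f_315, d10_f_317, d10_f_336, d10_f_433 and d10_f_454. In d10_m_318, d10_m_321, d10_m_333, d10_m_435 and d10_m_453 they were 0.673, 7.43, 2.11, 2.62 and 0.739 CPM. High and low embryos occurred in both sexes, and the range overlapped with that of both other days.

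TXNIP, which binds thioredoxin and curbs glucose uptake, fell into separate levels on Day 10. The embryos d10_f_433, d10_m_435, d10_m_453 and d10_f_454 had 7.36, 7.1, 10.9 and 7.32 CPM. The other embryos of Day 10 had 0.907, 1.67 and 2.76 CPM in females and 0.987, 1.75 and 1.5 CPM in males. Both sexes were on both sides of this gap, and the 4 high embryos share a first digit of their embryo number that the other 6 do not have, where the labels do not say what the numbers stand for. The same 4 embryos lay above the other 6 in 9 members (7.38%), against 2.71% of all genes, and below them in no member, against 1.11% (counted after the split was seen). These were PRSS8, TXNIP, ARRDC4, ALPL, TFRC, FAM89A, ALPK3, ZC3HAV1 and PLEKHG1. For TFRC the 4 embryos had 4.28 to 8.28 CPM and the other 6 had 1.86 to 3.45 CPM. On Day 8 TXNIP ran from 17.9 to 49.6 CPM and on Day 12 from 4.93 to 17.3 CPM, so that its Day 12 to Day 8 ratio of 0.351 was the lowest of the 122.

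PTGS2 on Day 10 was low in d10_m_453 (34.6 CPM) and d10_f_454 (19.1 CPM), and the other 8 embryos had 75.4 to 192 CPM. PRSS8, a membrane serine protease that activates the epithelial sodium channel, was highest in d10_f_433 and d10_m_435 (60.9 and 52 CPM, named after its values were seen), followed by d10_m_453 and d10_f_454 (34.3 and 28.4 CPM), and the other 6 embryos had 7.45 to 26.8 CPM.

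**Figure D5:**
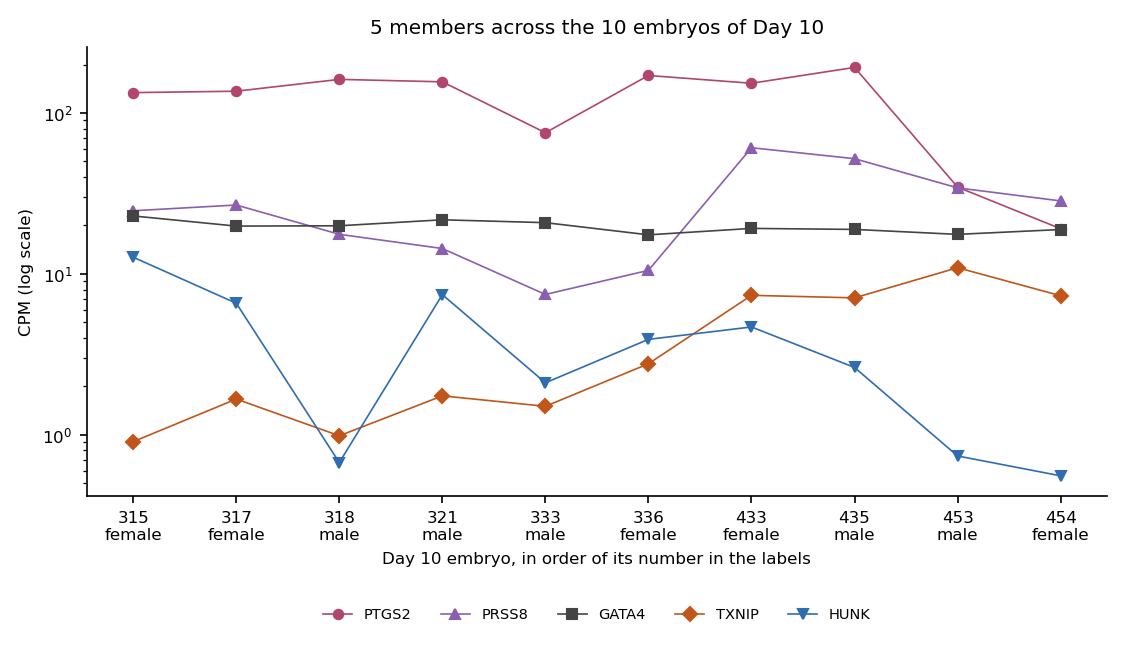
CPM (log scale) of PTGS2, PRSS8, GATA4, TXNIP and HUNK in the 10 Day 10 embryos, ordered by the number that the labels give each embryo; lines only join the values of a gene. GATA4 stays within 17.5 to 22.9 CPM, TXNIP and PRSS8 are higher in the last 4 embryos of the axis than in the first 6, and PTGS2 is lowest in the last 2.

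At the edge of the rule the choice was fine. Of 8819 genes that met the conditions on Days 8 and 12, the members with the highest Day 10 share of the lower flank were HOMER1 (49.5%), KANK2 (49.2%), FAM117B (49.1%), BZW2 (49.1%) and PDE8A (49.0%). Just outside were LOC102164161 (50.1%), MUC20 (50.2%), PITX1 (50.3%), GNG2 (50.5%) and PLXNA1 (50.5%). HOMER1, a synaptic type scaffold protein, averaged 2 ± 0.327, 0.992 ± 0.377 and 3.57 ± 2.08 CPM on Days 8, 10 and 12, and PDE8A, a cyclic AMP phosphodiesterase, 4.76 ± 1.29, 2.33 ± 0.593 and 5.21 ± 2.05 CPM on Days 8, 10 and 12. These 5 members did not meet the rule with TMM factors.

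Cell type markers were read beside the trough. The 18 measured trophectoderm markers summed to between 23945 and 28041 CPM on Day 8, between 46677 and 67908 on Day 10 and between 14509 and 36792 on Day 12, so their share of the counts was highest on the day of the trough. The 14 hypoblast markers summed to 1384 to 2732, 1315 to 2104 and 3000.0 to 10857 CPM, and the 15 epiblast markers to 393 to 479, 527 to 1690 and 486 to 1432 CPM. Taken singly, the epiblast markers moved otherwise than their sum. From Day 8 to Day 10, 5 of the 15 were called lower and 3 higher, with a median log2 fold change of -0.93. From Day 10 to Day 12, 10 were called lower and 1 higher, with a median of -2.87. Over all genes 4.2% were lower and 9.88% higher in the first step, and 8.39% lower and 14.9% higher in the second. The 6 mesoderm markers summed to 64.8 to 210.1 CPM on Day 10 and to 755 to 1859 CPM on Day 12. Of 16 uterine epithelial markers, 8 were measured and summed to at most 20.8 CPM on Days 8 and 10 and 81.1 on Day 12. PGR and PAEP were not listed. Among the 8, FOXA2 is also in the hypoblast list, so this sum does not measure maternal cells alone. Leukocyte markers other than 4 were not listed, PTPRC among them, and those 4 summed to 29.8 to 75.3 CPM over all days. The 2 listed red blood cell markers summed to at most 11.9 CPM. The part of cell type shares in the trough was not tested.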

How the data were processed

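Each of 30 embryos gave 1 library of mRNA reads. The deposited tables hold raw read counts per NCBI gene, without normalization. To make them, the authors trimmed reads with Trim Galore, cut 3 bases off the 5′ end, mapped to the NCBI pig assembly Sscrofa11.1 and filtered genes by CPM. Their aligner, counting tool and cutoff value are not given in the sources used here. All 13103 identifiers were matched to a symbol and position of that assembly. Sexes were compared in the tables of 11405, 11675 and 12220 genes for Days 8, 10 and 12, and everything else used the table of all embryos.

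For the rule and all CPM given, counts were divided by column totals. Tests were edgeR 4.0.16 quasi-likelihood F tests in R 4.3.3 (robust dispersion, TMM factors, two-sided, Benjamini-Hochberg adjustment over all genes of a table), with a false discovery rate under 0.001 and a log2 fold change beyond 1 between days, and under 0.05 between sexes and in interactions. An SE of a fitted value was taken from the F statistic. SDs of log2 CPM used a pseudocount of 0.5. Genes named are those in a list, the 10 with the highest Day 8 mean, the 10 with the largest fitted fall without overlap, those called between sexes, the 3 widest and 3 narrowest on Day 10, and 5 on either side of the threshold. The members and the lists were chosen with earlier results of these data known, and the function groups after the members were seen. Alternatives were the robust GLM named in the methods, DESeq2 1.42.0, RLE factors, library size alone, a filter of 10 counts in 5 embryos, sex as a term, glmTreat at a log2 fold change of 1, other thresholds of the rule, and each embryo left out. The folds without an embryo and the term for the embryo number were added after seeing the data. The tests were checked on simulated data with independent embryos, so shared litters were not part of that check. It used the first contrast and the false discovery rate alone, so calls on both sides were not checked. Promoter and protein sequences were not used here. Counts cover all members, but 1 member is not reported here by itself and is left out of the plots of single genes. FUT2A and genes with a locus name may share reads with near-identical copies.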

Additional observations from a re-analysis of the deposited data

Results flagged for a closer look

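Screened in each day were the values of 48 members and 3 summary measures of the embryos. The members were those named by the rule and 6 described after their values were seen. An embryo far from the other 9 was flagged (Dixon's test at 95%), and of 153 groups 15 held such an embryo. The test's rate of about 1 of 20 groups holds for normally distributed values of genes not picked by those values. Member values were CPM, and some members were named for wide spread or after their values were seen. That rate therefore does not apply here, and nothing is read from the count of flags.

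On Day 8, d08_m_136 stood above the rest for CDH3 (37.5 CPM, next 7.35), TNS4 (32.7 CPM, next 8.26) and SOWAHC (27.6 CPM, next 20.2). Embryo d08_m_121 stood above the rest for SLC29A1 (282.9 CPM, next 207) and GATA4 (65.5 CPM, next 45.5). On Day 10, d10_f_433 was highest for HOMER1 (1.91 CPM, next 1.21) and DLX6 (3.04 CPM, next 1.76), and d10_f_454 for KANK2 (3.08 CPM, next 2.14).

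On Day 12, d12_m_307 had 3041 CPM of PTGS2 (next 553) and d12_m_249 had 101 CPM of SDC3 (next 26.4) and 11.6 CPM of MELTF (next 5.44). Embryo d12_f_289 was highest for HUNK (32.1 CPM, next 18.5). The smallest library, d12_f_245, was highest for FAM89A (18.1 CPM, next 10.5), and d12_m_276 for HOMER1 (8.49 CPM, next 4.79) and CDH3 (74.7 CPM, next 31.5). All 15 values were the highest of their day and none was the lowest.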

How the results depend on the processing

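The rule found 122 genes. With TMM or RLE factors it found 80, all among the 122, and with a Day 10 mean of at most 1/3 of both days 36. Leaving out 1 embryo gave 115 to 152 genes, of which at least 114 were members. Between sexes on Day 8 the robust GLM called 4 members in place of 1 (PRSS8, CTSC, CDK6 and VSIG1), and leaving out 1 embryo gave 0 to 1. On Day 10 leaving out 1 embryo gave 0, as did the first digit of the embryo number as a term (chosen after seeing the data), and on Day 12 DESeq2 called 2 in place of 0 and leaving out 1 embryo gave 0. In the interaction from Day 8 to Day 10 every alternative gave 0, and from Day 10 to Day 12 leaving out 1 embryo gave 0 to 2, with 2 without d12_f_299.

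Genes chosen in females and called in males numbered 22, 50 with the robust GLM, 41 with DESeq2, and 15 to 25 when 1 embryo was left out. Genes chosen in males and called in females numbered 22, 49 with the robust GLM, 35 with DESeq2, and 13 to 25 when 1 embryo was left out, with 14 without d08_f_109, 14 without d10_f_315 and 13 without d10_f_336. Members called lower on Day 10 than on both days numbered 65, 104 with library size alone, 8 in the test against a log2 fold change of 1, and 54 to 69 when 1 embryo was left out. Library size alone keeps the column total shift of -0.16 and 0.18 described above, and its part in these counts was not tested. Fold changes of named members kept their direction under all 4 alternatives, which follows from the choice of members on the same counts. Of 348 values 35 moved by more than their SE. Of the counts above 22 of 230 moved by over 1.5 times, or to or from 0. No paired analysis was possible because no embryo number occurs in more than 1 group and the labels do not give the sow. Depth limited SCIN, TNS4 and PLEKHG1, which had 3 counts or fewer in 3 to 6 Day 10 embryos, and the litter of an embryo could not enter any test.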
